A study of Mus musculus with 4 samples.

Results

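Genes of amino acid supply and one-carbon metabolism were followed over 4 populations of mouse CD4 T lineage cells. They were chosen by name as 34 genes in 4 roles, namely amino acid transporters, enzymes of serine and one-carbon metabolism, ATF4 stress genes, and other enzymes of amino acids and polyamines. Of these, 33 had a probe set with exactly 1 gene symbol, out of 22180 genes measured in all, and Pycr1 was not analysed here. All animals had the C57BL/6 background and were 8 weeks old. Natural Th1 cells (nTh1) were thymocytes with CD4, CD62L and CXCR3 from mice labelled CIITAtg. Classic Th1 cells (cTh1) were naive T cells of wild-type spleen, stimulated with anti-CD3/CD28 beads for 5 days under 2 ng/ml of IL-12 and 50 U/ml of IL-2, with IL-4 blocked by antibody. TT naive cells were CIITAtg thymocytes with CD4 and CD62L and without CXCR3. Naive cells were wild-type spleen T cells with CD4 and high CD62L. The sources used here do not name the promoter of the CIITA transgene or say whether animals were pooled. Each population has 1 Affymetrix array, so no difference has a replicate check and no test was made.

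T cells that start to divide import amino acids and also make some of them. Serine made from glycolytic intermediates, or imported, gives carbon units to folate, which are used for nucleotides. A shortage of amino acids activates the kinase GCN2, which lets the transcription factor ATF4 be translated. ATF4 then acts on genes for transporters, amino acid synthesis and stress feedback, in part through a sequence called CARE, the C/EBP-ATF response element. Because ATF4 is controlled largely at translation, its transcript level says little about its protein.

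Of the 33 genes, Asns had the widest range over the arrays, and the 150 bases before its annotated start are shown because they hold the CARE letters. The sequence is from RefSeq, build GRCm38.p6, chr6:7693210-7693359, minus strand, and capitals mark the match.

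Asns: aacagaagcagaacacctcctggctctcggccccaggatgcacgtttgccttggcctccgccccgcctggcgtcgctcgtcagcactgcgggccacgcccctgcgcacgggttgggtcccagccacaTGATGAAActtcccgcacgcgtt

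The letters TGATGNAA were searched on both strands in RefSeq windows of 250 bases before to 50 bases after each start. Windows were found for 29 of the 34 genes. Cth, Slc1a5, Slc38a1, Slc7a5 and Srm had none in the table used. A match was present in 8 of these 29 genes (27.6%), against 1219 of all 27025 genes in the table (4.51%). Many of the genes were chosen as known ATF4 targets, so this share is a description only, and a match is not evidence of binding. The E box letters CACGTG, which MYC and related factors can bind, were found in 3 of the 29 (Aldh18a1, Cbs and Nupr1), against 8.09% of all genes, and overlapped no CARE match. Of the 8 genes with a CARE match, Asns, Trib3, Chac1 and Nupr1 were highest in cTh1. Slc1a4, Got1 and Slc7a11 were highest on the array labelled naive, and Pycr1 was not analysed. Sesn2, Psph, Mthfd1l, Cbs and Got2 were also highest in cTh1 and had no match in their windows. A link between match and level was not tested. The CARE matches outside Asns are shown with 11 bases on each side, on the strand of the gene. They lie at chr2:152344028-152344057 (Trib3), chr2:119351038-119351067 (Chac1), chr7:126625562-126625591 (Nupr1), chr11:20332699-20332728 (Slc1a4), chr3:50443661-50443690 and chr3:50443642-50443671 (Slc7a11), chr19:43524689-43524718 (Got1) and chr11:120643833-120643862 (Pycr1). Chac1 is on the plus strand and the others are on the minus strand. Where the capitals read TTGCATCA or TTACATCA, the motif is on the opposite strand.
Trib3: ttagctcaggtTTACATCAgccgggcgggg
Chac1: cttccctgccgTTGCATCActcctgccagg
Nupr1: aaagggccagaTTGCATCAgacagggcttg
Slc1a4: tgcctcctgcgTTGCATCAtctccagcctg
Slc7a11: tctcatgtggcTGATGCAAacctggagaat
Slc7a11: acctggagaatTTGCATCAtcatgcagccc
Got1: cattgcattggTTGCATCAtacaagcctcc
Pycr1: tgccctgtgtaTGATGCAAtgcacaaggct

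**Figure D1:**
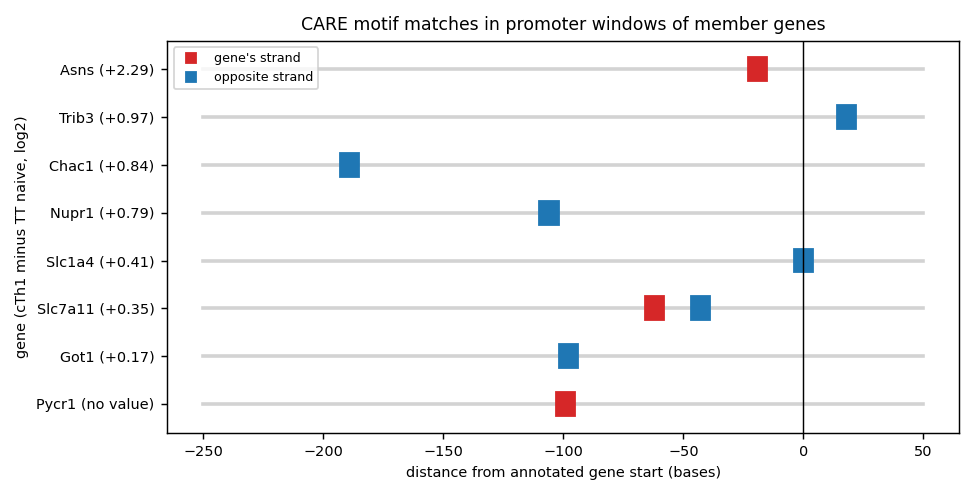
Position of CARE letters (boxes, red on the strand of the gene and blue on the opposite strand) in the promoter windows of the 8 genes that hold them, as distance in bases from the annotated gene start (x axis), with the log2 difference of cTh1 minus TT naive beside each name. The matches run from 193 bases before the start in Chac1 to 14 bases after it in Trib3, and Slc7a11 holds 2.

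Values below are log2 RMA values, so a difference of 1 is 2-fold. Levels of different genes are not set against each other, since each probe set has its own scale. For counts, a gene had to reach 6.61, the median of all values, on either array of the pair. As a measure of error, probe sets for 1 gene disagreed in their difference with an SD of 0.257 (nTh1 over TT naive), 0.402 (cTh1 over the array labelled naive), 0.481 (nTh1 over cTh1) and 0.440 (cTh1 over TT naive). Variation from mouse to mouse, from sort to sort and from array to array is not in it. The CD4 T cell markers Cd3e, Cd3g, Cd4, Cd5 and Cd28 lay between 11.08 and 13.11 on every array. The array labelled naive had Tbx21, the Th1 factor T-bet, at 9.81, against 7.92 in nTh1, 7.11 in TT naive and 11.25 in cTh1. Zbtb16, the innate-like T cell factor PLZF, was at 12.23 on that array, against 9.88 in nTh1, 9.36 in TT naive and 7.31 in cTh1. Cxcr3, the surface marker that separated nTh1 from TT naive, was at 9.91 in nTh1, 7.76 in TT naive and 9.80 on the array labelled naive. The MHC class II gene H2-Aa was at 12.66 on both the nTh1 array and the array labelled naive, and Ifng was at 7.34 in nTh1, 5.88 in TT naive and 8.80 on the array labelled naive. It is therefore called the array labelled naive. Whether samples were exchanged was not tested, so every direction drawn from this array or from nTh1 rests on the labels. Proliferation genes (Mki67, Top2a, Birc5, Aurkb and Mcm5) had medians of 9.19 in nTh1, 11.01 in cTh1, 9.74 in TT naive and 10.77 on the array labelled naive.

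Most of the genes were at their highest on the array labelled naive. It held the highest of the 4 values for 23 of 33 genes (69.7%), while it did so for 29.2% of the 13238 genes that reached the filter on any array. cTh1 was highest for 9 genes (27.3%, against 34.2% of all), TT naive for 1 (Cth) and nTh1 for none of the 33 (0%, against 20.5% of all). TT naive was lower than the array labelled naive for 31 of 33 genes (30 when centred, 29 after removal of a loess trend), beside 57.9% of all genes, with a median difference of -0.33, beside -0.06 over all genes. For nTh1 over the array labelled naive, 30 of 33 were lower (29 under either scaling), beside 60.4% of all genes, and the median was -0.52, beside -0.10. Myeloid markers also differed: 7 of 7 were above the filter on the array labelled naive, from 6.77 to 9.57, against 4 of 7 in TT naive, from 5.60 to 8.89. C1qb was at 6.64 in TT naive and 8.59 on the array labelled naive. Of the 7, Cd68 alone went the other way, at 8.89 and 8.65. The part of such cells was not tested. These pairs share the array labelled naive, so their counts are not separate evidence. Fewer cells of a type and less RNA per cell cannot be told apart in such bulk samples.

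**Figure D2:**
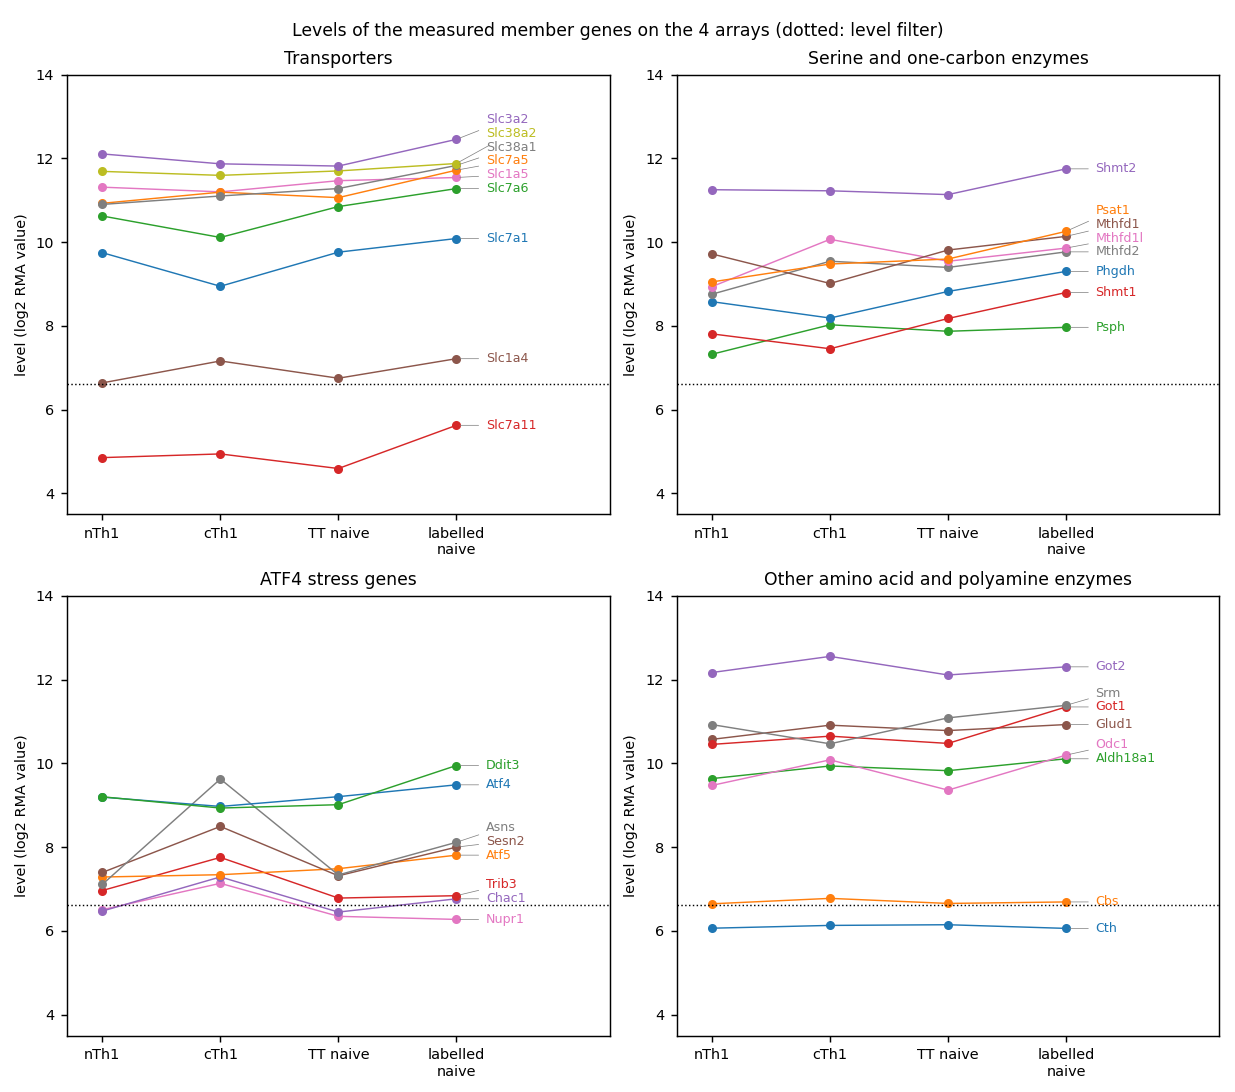
Log2 RMA level (y axis) of each of the 33 genes on the 4 arrays (x axis), in a panel for each role, where lines only join the values of a gene and the dotted line is the level filter at 6.61. All 9 transporters are highest on the array labelled naive, while 5 of the 8 ATF4 stress genes are highest in cTh1, with Asns at 9.63.

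Cultured Th1 cells were set against spleen cells labelled naive, and against TT naive as a second baseline. Asparagine synthetase was higher in cTh1, and 6 genes were at least 2-fold lower, namely the transporters Slc7a1 and Slc7a6, the enzymes Phgdh, Shmt1 and Mthfd1, and the stress factor Ddit3. Of the 31 genes above the filter 1 was at least 2-fold higher (3.23%), against a background of 5.13% of 12835 genes, and the 6 that were lower were 19.4%, against 3.35%. The median over all 33 genes was -0.34, and that of all genes above the filter was -0.02. With TT naive as the baseline, 2 of 31 genes were at least 2-fold higher in cTh1 (6.45%, background 7.24% of 12728 genes), none was at least 2-fold lower (background 3.02%), and the median was 0.11 beside 0.03 for all genes. Of the 6 lower genes, Slc7a1, Mthfd1, Slc7a6, Shmt1 and Phgdh were still lower than TT naive, from -0.81 to -0.63, and Ddit3 was at -0.08. The share of higher genes was no larger than the background in both comparisons. Both use the cTh1 array. Between cTh1 and TT naive, tissue, genotype and culture differ together and cannot be told apart.

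Among the ATF4 stress genes, Asns, which makes asparagine from aspartate and glutamine, was at 9.63 in cTh1, against 7.34 in TT naive and 8.12 on the array labelled naive. The cTh1 value stood apart from both. It was 2.85-fold that of the array labelled naive (log2 1.51) and 4.89-fold that of TT naive (log2 2.29). Sesn2, a stress protein that senses leucine and restrains mTORC1, was at 8.50 in cTh1, against 7.32 in TT naive and 8.00 on the array labelled naive. It differed by 1.18 from TT naive and by 0.49 from the array labelled naive, so the size depended on the baseline.

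Trib3, a pseudokinase that dampens ATF4 activity, was at 7.76 in cTh1, against 6.79 in TT naive and 6.84 on the array labelled naive. Chac1, an enzyme that degrades glutathione, was at 7.29 in cTh1, against 6.45 and 6.77 on those arrays. Nupr1, a small stress-induced chromatin protein, was at 7.14 in cTh1, against 6.35 and 6.28. These genes were highest in cTh1 without reaching 2-fold (between 0.52 and 0.97), and they lay close to the level filter. The transcription factors did not share this order. Atf4 was at 8.97 in cTh1, against 9.21 in TT naive and 9.49 on the array labelled naive, and Atf5, a related factor, was at 7.34 against 7.49 and 7.81. Ddit3, which encodes the stress factor CHOP, was at 8.93 in cTh1, against 9.01 and 9.95, so that its difference of -1.02 was against the array labelled naive alone and was -0.08 against TT naive.

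All 9 transporters, of which 8 were above the filter, were lower in cTh1 than on the array labelled naive, beside 52.3% of all genes above the filter. Their differences ran from -1.17 to -0.05, with a median of -0.58. Slc7a1, the main carrier of arginine and lysine in T cells, was at 8.95 in cTh1, against 9.76 in TT naive and 10.09 on the array labelled naive. Slc7a6, a y+L type carrier, was at 10.11 in cTh1, against 10.85 and 11.28. These 2 were the lowest in cTh1 with either baseline, at -1.14 and -1.17 against the array labelled naive and at -0.81 and -0.74 against TT naive. The leucine carrier Slc7a5, which pairs with Slc3a2 to form the surface complex CD98, was at 11.19 in cTh1, against 11.06 in TT naive and 11.72 on the array labelled naive. Slc3a2 was at 11.87, against 11.81 and 12.45. The chains of CD98 thus differed from TT naive by 0.13 and 0.05, and from the array labelled naive by -0.52 and -0.58.

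The glutamine carriers Slc1a5, Slc38a2 and Slc38a1 differed from TT naive by -0.27, -0.11 and -0.18, which is less than Slc7a1 and Slc7a6 did. Slc1a5 was at 11.20 in cTh1, against 11.47 in TT naive and 11.54 on the array labelled naive, and Slc38a2 was at 11.59, against 11.70 and 11.88. Slc38a1 was at 11.10, against 11.28 and 11.83. The neutral amino acid carrier Slc1a4 was at 7.16 in cTh1, against 6.75 and 7.22. The cystine carrier Slc7a11 was below the filter on all 4 arrays (4.59 to 5.63), so its promoter matches have no readable difference beside them. It and Slc1a5 each had a second probe set, and the probe sets disagreed in sign for nTh1 over TT naive in both genes.

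Among the 8 serine and one-carbon enzymes, 3 were at least 2-fold lower in cTh1 than on the array labelled naive (background 3.35%), and 0 of 8 were so against TT naive (background 3.02%). Phgdh, the entry enzyme of serine synthesis, was at 8.19 in cTh1, against 8.82 in TT naive and 9.30 on the array labelled naive. Psat1, the next step, was at 9.48, against 9.60 and 10.26, and Psph, the last step, was at 8.03, against 7.87 and 7.97. The 3 steps of serine synthesis thus did not move together, with Phgdh at -0.63, Psat1 at -0.12 and Psph at 0.16 against TT naive.

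Folate enzymes work in the cytosol and in mitochondria. Shmt1, the cytosolic enzyme that splits serine, was at 7.45 in cTh1, against 8.18 in TT naive and 8.80 on the array labelled naive. Mthfd1, the cytosolic enzyme of folate interconversion, was at 9.01, against 9.81 and 10.14. These were among the lowest of the 33 genes in cTh1, at -0.72 and -0.80 against TT naive. Against TT naive, their mitochondrial counterparts did not follow: Shmt2 was at 11.22 in cTh1, against 11.13 and 11.75, and Mthfd2 was at 9.54, against 9.40 and 9.77. Mthfd1l, which releases formate from mitochondria, was at 10.07, against 9.54 and 9.86. The mitochondrial genes differed from TT naive by 0.09, 0.15 and 0.52. From the array labelled naive they differed by -0.52, -0.22 and 0.21, beside -1.34 for Shmt1 and -1.12 for Mthfd1, so Shmt2 and Mthfd2 were lower there too. The grouping by compartment was made after the values were seen, and the difference between compartments was not tested.

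**Figure D3:**
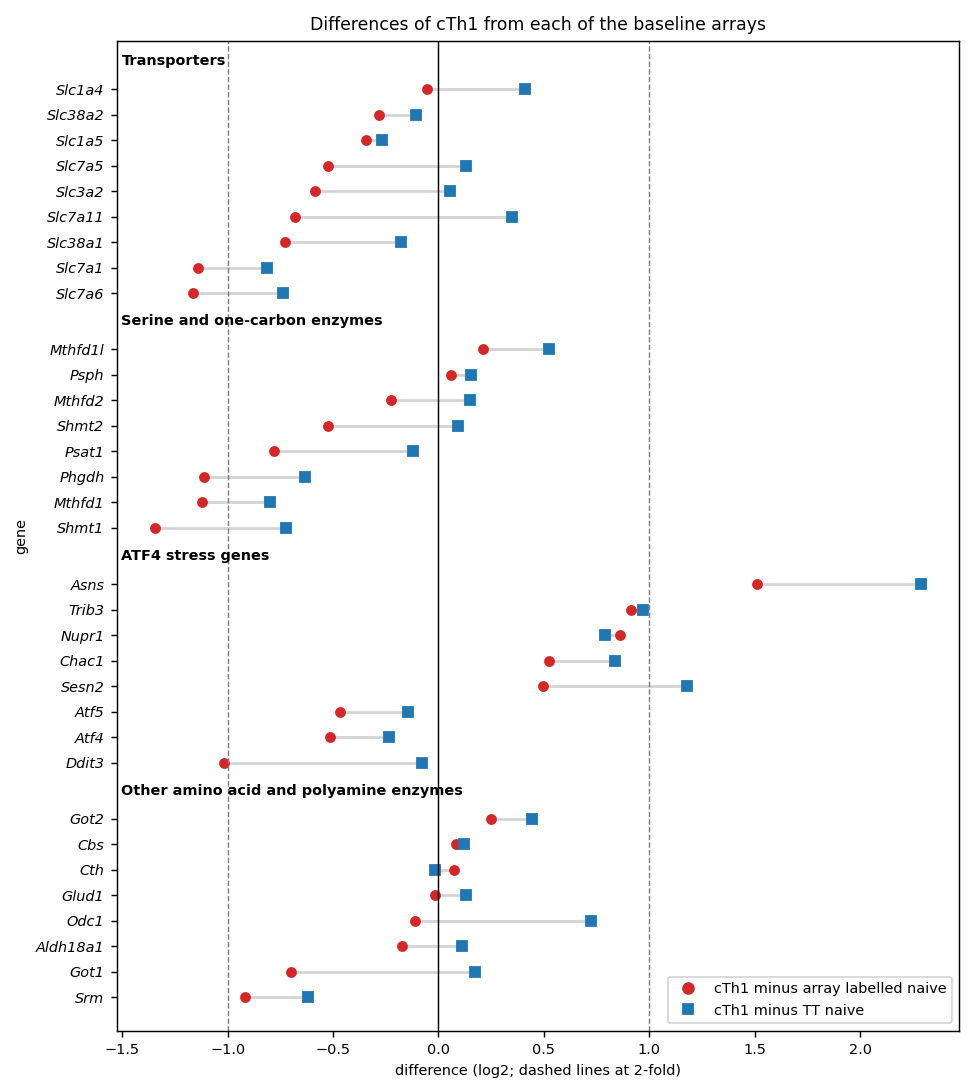
Log2 difference (x axis) of cTh1 minus the array labelled naive (circles) and minus TT naive (squares) for each gene (y axis), grouped by role, with dashed lines at 2-fold. Asns is beyond 2-fold with both baselines, while the 6 genes left of -1 are all circles.

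Of the 8 other enzymes with a value, 7 were above the filter in each of the 4 comparisons, and none reached 2-fold in any. Of all genes above the filter, 1.09% to 8.3% did so in a given direction and comparison, so few were to be looked for among 7. Odc1, the rate-limiting enzyme of polyamine synthesis, was at 10.08 in cTh1, against 9.36 in TT naive and 10.20 on the array labelled naive. Srm, which makes spermidine further along that path, was at 10.47, against 11.09 and 11.39. Against TT naive the 2 differed in sign, at 0.72 and -0.62. The aspartate aminotransferases also differed from each other. Got1, the cytosolic form, was at 10.65, against 10.48 and 11.35, and the mitochondrial form Got2 was at 12.55, against 12.11 and 12.30. Glud1, glutamate dehydrogenase, was at 10.91, against 10.78 and 10.93, and Aldh18a1, the first step from glutamate to proline, was at 9.94, against 9.83 and 10.11. Cbs and Cth, the enzymes from homocysteine to cysteine, ranged over 0.13 and 0.09 across the 4 arrays, with Cth below the filter throughout.

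Markers of other cells moved with these comparisons. All 5 measured B cell markers (Cd79a, Cd79b, Ms4a1, Cd22 and Ebf1) were above the filter in cTh1, from 8.24 to 10.57, against 1 of 5 in TT naive (5.27 to 7.41) and 2 of 5 on the array labelled naive (4.99 to 7.23). Cd8a was at 10.31 in cTh1, against 6.22 and 6.31, and Cd8b1 was at 10.75, against 9.38 and 8.45. Their part in the values of Asns and the other genes was not tested. The proliferation medians given above were closer between cTh1 and the array labelled naive than between cTh1 and TT naive, and their part was not tested either.

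The comparison of nTh1 with TT naive asks what goes with CXCR3 among CIITAtg thymocytes. No gene of the 33 reached 2-fold, and the lowest differences were those of the enzymes Mthfd2, Mthfd1l, Psat1 and Psph, which were lower in nTh1. Among the 29 that passed the filter, 0 were higher by 2-fold or more (background 1.41% of 12435 genes) and 0 were lower by as much (background 1.09%). The median was -0.09, beside -0.05 for all genes above the filter, and the 5th percentile of the latter was -0.57. Of the 8 serine and one-carbon enzymes 7 were lower, beside 57.3% of all genes, with a median of -0.46.

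Mthfd2 was at 8.76 in nTh1 and 9.40 in TT naive, a difference of -0.64. Mthfd1l was at 8.94 in nTh1 and 9.54 in TT naive, a difference of -0.60. Psph was at 7.32 and Psat1 at 9.05 in nTh1, against 7.87 and 9.60 in TT naive, each lower by 0.55. These 4 differences were beyond the SD between probe sets, which holds no variation from array to array, sort to sort or mouse to mouse. Among all genes above the filter, they lay at percentiles 3.65 (Mthfd2), 4.24 (Mthfd1l), 5.52 (Psat1) and 5.44 (Psph). Each gene was at its lowest of the 4 arrays in nTh1. This held for 13 of the 33 genes (39.4%), beside 34.5% of all genes that reached the filter on any array. The 4 were named for their low differences in nTh1, so this is not separate evidence. The direction rests on the labels, since TT naive minus the array labelled naive was also negative, at -0.37 for Mthfd2, -0.31 for Mthfd1l, -0.66 for Psat1 and -0.09 for Psph. For nTh1 over TT naive, Shmt1 at -0.37, Phgdh at -0.24 and Mthfd1 at -0.09 were closer, and Shmt2 was 0.12 higher.

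The transporters ranged from -0.38 for Slc38a1 to 0.29 for Slc3a2 in this comparison, and the arginine carrier Slc7a1 was at 9.75 in nTh1 and 9.76 in TT naive. The stress genes ranged from -0.23 for Asns to 0.19 for Ddit3, and the other enzymes from -0.21 for Glud1 to 0.11 for Odc1. Of those above the filter, Slc38a1 and Slc3a2 were the ones beyond the SD of 0.257. Myeloid markers differed between the same arrays. All 7 (Lyz2, Cd68, C1qb, C1qa, Csf1r, Mpeg1 and Fcer1g) were above the filter in nTh1, from 7.43 to 9.83, against 4 of 7 in TT naive, from 5.60 to 8.89. Of the NK markers, Tyrobp was at 8.59 in nTh1 and 6.85 in TT naive, while Ncr1 and Klrb1c were below the filter in both. The mast cell gene Cpa3 was at 8.70 in nTh1 and 7.05 in TT naive. B cell markers were from 6.45 to 8.46 in nTh1 and from 5.27 to 7.41 in TT naive. The part of these cells in the values was not tested. The proliferation median was 9.19 in nTh1 and 9.74 in TT naive, with Mcm5 the other way, at 10.96 and 10.89. The part of proliferation was not tested either.

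The series sets natural against classic Th1 cells. Asns, Sesn2 and Mthfd1l were at least 2-fold lower in nTh1 than in cTh1, and no gene of the 33 was at least 2-fold higher. Of 31 genes above the filter, 3 were lower (9.68%), near the background of 8.3% of 12841 genes, and 0 were higher, against 3.46%. The median was -0.20, beside -0.08 for all genes. Asns was at 7.11 in nTh1 and 9.63 in cTh1, which is 5.72-fold lower, and 0.95% of the genes above the filter had a difference as low as this. Sesn2 was at 7.40 in nTh1 and 8.50 in cTh1, and Mthfd1l at 8.94 and 10.07.

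Genes of the same roles also pointed the other way in this comparison. Slc7a1 was at 9.75 in nTh1 and 8.95 in cTh1, a difference of 0.80, Mthfd1 was at 9.72 and 9.01, and Slc7a6 was at 10.62 and 10.11. Of the 8 serine and one-carbon enzymes 4 were higher and 4 lower, with a range from -1.13 to 0.70. Of the 8 stress genes 6 were lower (5 when centred or after loess removal, where Atf5 turned), beside 57.1% of all genes, with Chac1 at -0.82, Trib3 at -0.79 and Nupr1 at -0.63. Tissue, genotype and culture differ together between these arrays and cannot be told apart. B cell markers were from 6.45 to 8.46 in nTh1 and from 8.24 to 10.57 in cTh1, and Cd8a was at 6.42 in nTh1 and 10.31 in cTh1. Myeloid markers were from 7.43 to 9.83 in nTh1 and from 6.61 to 9.10 in cTh1, with Lyz2 at 9.44 and 7.17 and C1qb at 8.98 and 6.61. The part of such cells was not tested.

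**Figure D4:**
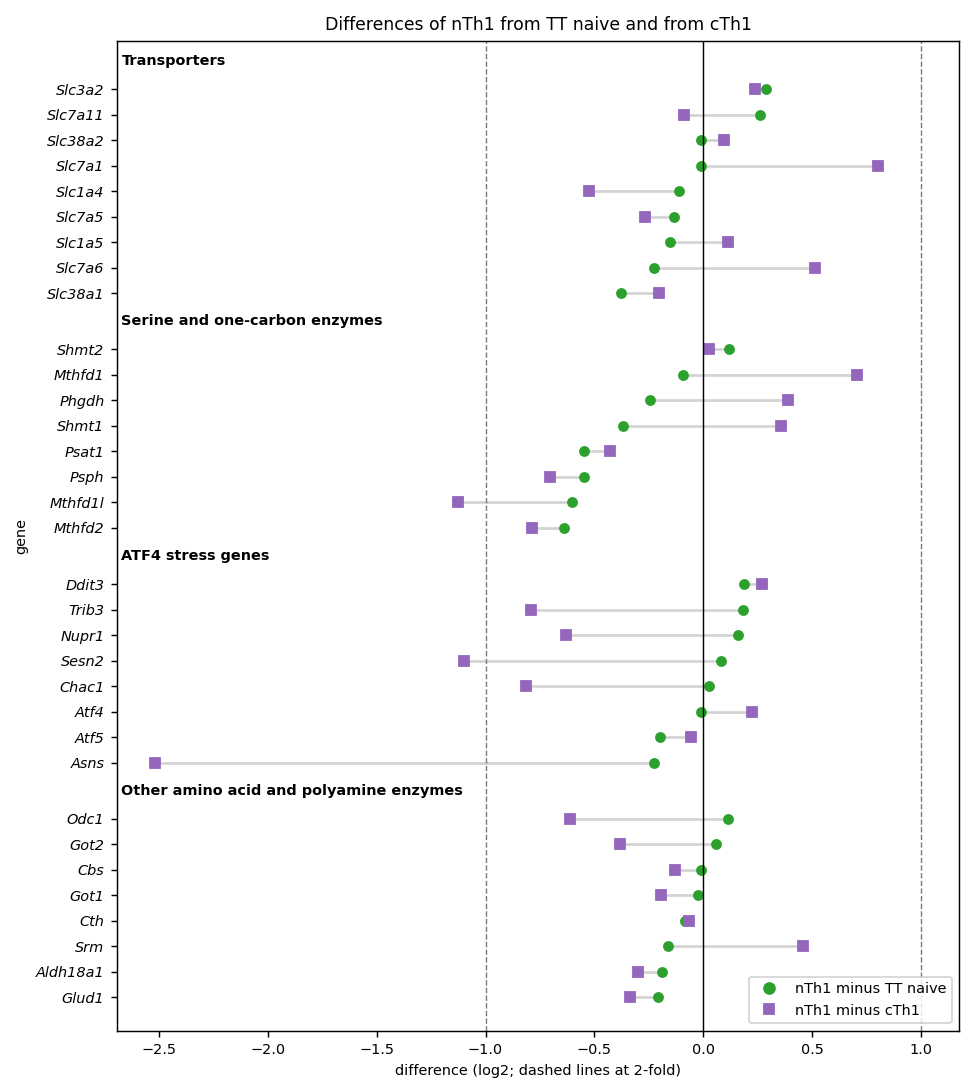
Log2 difference (x axis) of nTh1 minus TT naive (circles) and minus cTh1 (squares) for each gene (y axis), grouped by role, with dashed lines at 2-fold. No circle reaches 2-fold, and Asns at -2.52, Mthfd1l and Sesn2 are the only squares beyond it.

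**Figure D5:**
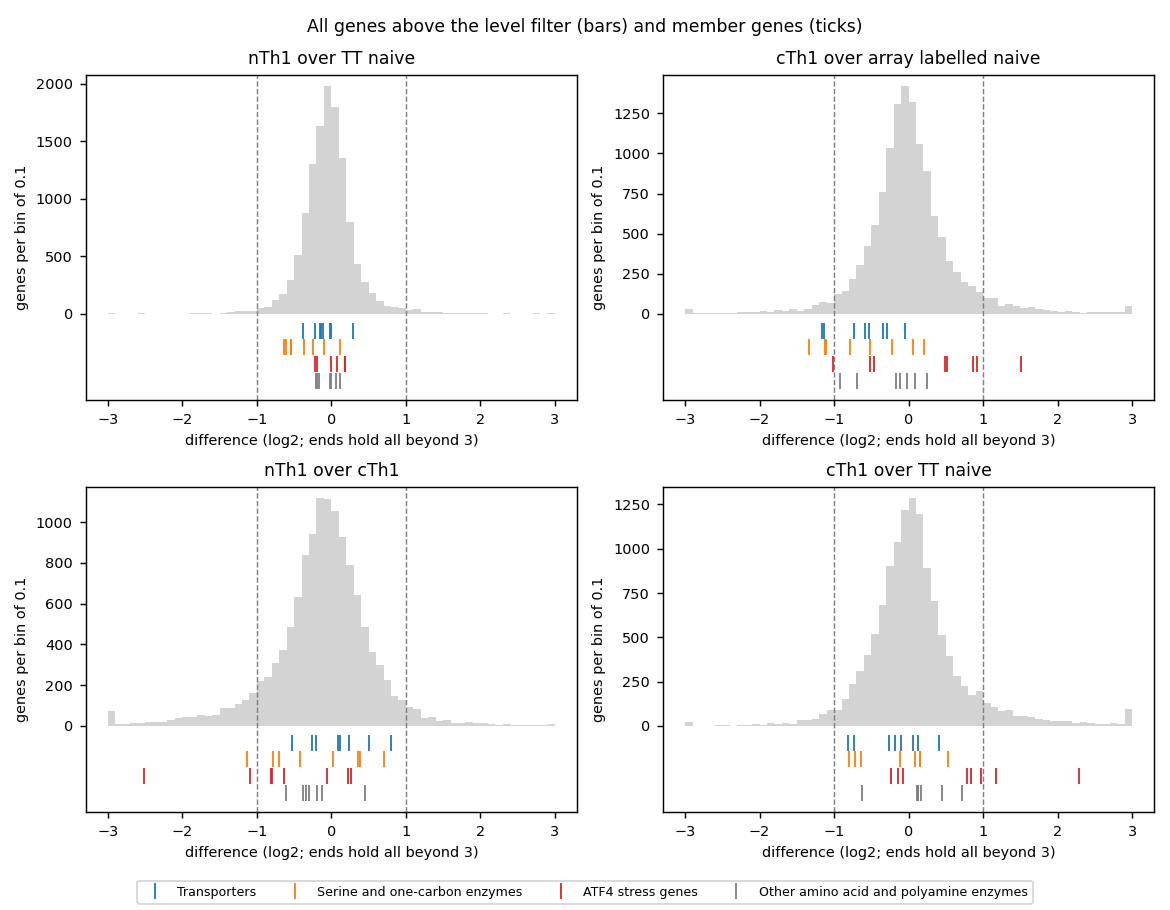
Number of genes above the level filter (y axis) by log2 difference (x axis, bins of 0.1) in the 4 comparisons, with the genes of each role as ticks under the bars and dashed lines at 2-fold. The ATF4 stress genes reach furthest, from -2.52 for nTh1 over cTh1 to 2.29 for cTh1 over TT naive, both Asns.

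Other genes of the same pathways were read from lists, leaving out the 33 genes above. For cTh1 over TT naive, the background over all genes was 7.24% at least 2-fold higher and 3.02% lower. Aminoacyl-tRNA synthetases, several of which ATF4 also induces, had 1 of 18 genes at least 2-fold higher in cTh1 than in TT naive and none lower. That gene was Vars, for valine, at 11.02 in cTh1, against 9.79 in TT naive and 10.60 on the array labelled naive. The list median was -0.23, with Tars at -0.67 and Farsb at -0.58, so the synthetases did not share the direction of Asns. In the folate and methionine list, Ahcy, which clears S-adenosylhomocysteine, was at 7.21 in nTh1, 9.10 in cTh1, 7.57 in TT naive and 8.01 on the array labelled naive. It was the only one of the 15 above the filter at 2-fold for cTh1 over either baseline, and the list median against TT naive was -0.17, with the methionine synthase Mtr at -0.96 and Amt at 0.71. For nTh1 over cTh1, Ggh at -1.18 was also at least 2-fold lower, named after its value was seen.

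Purine synthesis takes up the carbon units of folate, and none of its 9 measured genes was at least 2-fold higher in cTh1 with either baseline. Gart, which uses formyl folate, was at 9.46 in cTh1, against 10.44 in TT naive and 10.64 on the array labelled naive. Atic, which also uses it, was at 10.44, against 11.21 and 11.41, and Adsl was at 9.69, against 10.20 and 10.34. The list median was -0.15 against TT naive and -0.33 against the array labelled naive, where Gart at -1.18 was the 1 gene at 2-fold. The polyamine list had no gene of 7 at 2-fold against TT naive, with the antizyme inhibitor Azin1 at -0.62, Smox at 0.57 and the antizyme Oaz2 at 0.53. Oaz2 was at -1.07 for nTh1 over cTh1. The glutamine and glutamate list had 12 measured genes, of which 9 to 11 were above the filter in a comparison, and none of these was at 2-fold in the 4 comparisons, with Gpt2 at 0.93, Glul at 0.66 and Gss at 0.50 for cTh1 over TT naive.

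Larger differences were seen among other transporters and among signalling genes. Slc16a10, a carrier of aromatic amino acids, was at 8.48 in nTh1, 6.61 in cTh1, 8.89 in TT naive and 10.08 on the array labelled naive, so the difference of cTh1 was -2.28 to TT naive and -3.47 to the array labelled naive. Slc3a1 at -0.89 and Slc7a3 at 0.87 came next for cTh1 over TT naive. For nTh1 over TT naive, 2 of 15 genes of this list were at least 2-fold higher (background 1.41%), both carriers of large neutral amino acids and named after their values were seen. Slc43a1 was at 8.27 in nTh1 and 6.42 in TT naive, and Slc7a8 at 7.94 and 6.61. Both also reached 2-fold for nTh1 over cTh1, at 1.56 and 1.36, as did Slc16a10 at 1.87 (background 3.46% higher). The lower values in these differences lay near the level filter of 6.61. In cTh1, Slc43a1 was at 6.70, Slc7a8 at 6.58 and Slc16a10 at 6.61. These genes thus passed the filter mainly through the array where they were high, and the sizes of the differences are uncertain. For cTh1 over the array labelled naive, Slc7a8 was at 6.58 in cTh1 and 7.58 on that array, the other gene of this list at 2-fold beside Slc16a10. The list median was 0.03 in nTh1 relative to TT naive, and it was -0.01 in cTh1 relative to TT naive.

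The list of eIF2alpha and mTORC1 signalling held Eif4ebp1, the translation repressor 4E-BP1. Eif4ebp1 was at 8.36 in nTh1, 11.36 in cTh1, 8.62 in TT naive and 9.06 on the array labelled naive. Its highest value was in cTh1, by 2.74 over TT naive. Rragd, a Rag GTPase of amino acid sensing, was at 8.20 in cTh1, against 6.90 in TT naive and 7.03 on the array labelled naive. Ppp1r15a, which helps remove the phosphate from eIF2alpha, was at 9.61 in cTh1, against 10.97 and 11.42. These were the 3 genes of 23 at 2-fold against TT naive, 2 higher and 1 lower, and the list median was 0.06. Ddit4, an inhibitor of mTORC1, named after its value was seen, was at 9.48 in nTh1, 11.52 in cTh1, 11.35 in TT naive and 10.16 on the array labelled naive. It was the 1 gene of 23 in this list at 2-fold for nTh1 over TT naive, at -1.87 (background 1.09% lower). For cTh1 over the array labelled naive, Ddit4 was at 1.36 and Eif2ak2, the kinase PKR, also named after its value was seen, was at -1.03. Over all 7 lists, the medians for nTh1 over TT naive ran from -0.30 for purine synthesis to 0.03 for the other transporters, beside -0.05 for all genes.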

How the data were processed

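Per the submitters' processing notes, the authors ran RMA with Affymetrix Expression Console 1.3.1, and the deposited table is in log2 units per probe set. RMA subtracts a background, equalises the arrays by quantiles and fits each probe set. The sources used here do not state the summary level, annotation version or build. The table holds 41345 probe sets on 4 arrays, with array medians of 6.70 (nTh1), 6.52 (cTh1), 6.64 (TT naive) and 6.57 (naive). All 4 columns were matched by sample identifier, and 0 stayed unmatched. The number of arrays limits the precision.

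Gene names came from GEO's platform annotation, in which 23521 probe sets had 1 symbol, 1814 several and 16010 none. For the 1082 genes with several probe sets, the one with the highest mean was used. Differences are log2 values, counted at 2-fold or more. All genes of the chosen roles were named. From each pathway list the 3 with the largest difference for cTh1 over TT naive were named, and further genes at 2-fold after their values were seen. Of the listed pathway genes, 14 had no single-symbol probe set matched here. The genes, lists and motifs were chosen with earlier results of these data known. Alternatives were other level filters, centring, removal of a loess trend (span 0.3) and the mean of all probe sets. Baseline changes were added after the data were seen. Counting was checked on simulated arrays. Python 3.11.15, numpy 2.4.6, pandas 2.3.3, statsmodels 0.14.6 and matplotlib 3.10.9 were used.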

Additional observations from a re-analysis of the deposited data

Results flagged for a closer look

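Slc3a2, the heavy chain of CD98, stood 0.29 higher in nTh1 than in TT naive, and -0.58 in cTh1 relative to the array labelled naive. The Th1 array was thus higher than its baseline in the thymus and lower in the spleen, each by more than the probe set SD (0.257 and 0.402). With TT naive as the baseline, Slc3a2 in cTh1 was at 0.05, so the opposite directions rest on the array labelled naive. The difference between the 2 contrasts was not tested.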

How the results depend on the processing

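No paired analysis was possible because each group has 1 array and no result comes from a test. The counts at 2-fold stayed within 1.5 times with the level filter dropped or raised to 8.39 (75th percentile), and under centring, loess removal and the mean of all probe sets. Under the last 3 of these and over the genes above the filter alone, the median ran from -0.14 to -0.05 for nTh1 over TT naive, -0.37 to -0.32 for cTh1 over the array labelled naive, -0.20 to -0.12 for nTh1 over cTh1 and 0.05 to 0.11 for cTh1 over TT naive. All 396 values of single genes under centring, loess removal and the probe set mean moved by less than the SD between probe sets, and none that was at 2-fold changed sign. Small differences did turn, such as Slc7a1, Slc38a2, Atf4 and Got1 for nTh1 over TT naive under centring or loess removal. Close to the threshold, Ddit3 for cTh1 over the array labelled naive was at -0.99 when centred and -0.95 after loess removal, and Sesn2 for nTh1 over cTh1 was at -0.96 after loess removal. Baselines mattered more. With TT naive as the baseline of cTh1, the count of higher genes was 2 in place of 1, of lower genes 0 in place of 6, and the median 0.11 in place of -0.34. With the array labelled naive in place of nTh1, the median over TT naive was 0.33 in place of -0.09, and over cTh1 it was 0.34 in place of -0.20, with 6 genes higher in place of 0 and 1 lower in place of 3. The cause was not tested. With 1 array a group, differences smaller than the SD between probe sets (0.257 to 0.481) cannot be told from probe error.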
